A study of Mus musculus with 16 samples.

Results

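The haemoglobin chains and Alas2 were 5 genes of the 21878 mRNAs counted in brain cells from mice with experimental autoimmune encephalomyelitis (EAE), an induced model of multiple sclerosis. They were chosen by symbol alone and comprise the alpha chains Hba-a1 and Hba-a2, the beta chains Hbb-bs and Hbb-bt, and Alas2, and each of the 5 passed the filter on low counts. Female C57BL/6 mice aged 8 weeks were immunized with residues 35 to 55 of myelin oligodendrocyte glycoprotein in complete Freund's adjuvant, with 200 ng of pertussis toxin on days 0, 2 and 7, and 8 control mice were given PBS. Microglia, the resident macrophages of the brain, were isolated at the peak of disease on a Percoll gradient and by sorting of CD11b+ and CD45int cells, and 1 stranded total RNA library was made per mouse after removal of ribosomal RNA. The libraries are named EAE 1 to EAE 8 and PBS 1 to PBS 8. No allele is named beyond the strain, and since the PBS group is described only as given PBS, adjuvant and toxin cannot be told apart from the immunizing peptide. In the treatment field of the labels the last residue of the peptide runs from 55 in EAE 1 to 62 in EAE 8.

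Adult haemoglobin is a tetramer of alpha and beta globin chains, each holding a haem group that binds oxygen. Its chains are made in red cell precursors and reticulocytes under the control of the erythroid factors GATA1 and KLF1, and mature red cells keep haemoglobin but have no nucleus. Alas2 is the erythroid form of 5-aminolevulinate synthase, which catalyses the first and rate-limiting step of haem synthesis, and Alas1 is the form used by other cells. Globin transcripts in a brain preparation can come from blood in its vessels, and globin transcripts have also been described in neurons and glia.

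The chains of each kind are near copies of each other, and this limits how their reads can be assigned. In the GENCODE annotation of GRCm38, Hba-a1 lies on the plus strand of chromosome 11 (chr11:32283511-32284465) and Hba-a2 starts 12023 bases beyond its end (chr11:32296489-32297298). Hbb-bs (chr7:103826534-103828096) and Hbb-bt (chr7:103812524-103813996) lie on the minus strand of chromosome 7, 12537 bases apart. The coding sequences of Hba-a1 and Hba-a2 differ at 1 of 429 bases, C381T counted from the A of the start codon, with the base of Hba-a1 first. Those of Hbb-bs and Hbb-bt differ at 1 of 444 bases, C417T, with the base of Hbb-bs first. The coding stretches around these positions, read from the GENCODE transcripts, are shown with the differing base in capitals, since within the coding sequence it alone separates the reads of each pair.
Hba-a1: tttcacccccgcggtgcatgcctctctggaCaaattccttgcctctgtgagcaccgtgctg
Hba-a2: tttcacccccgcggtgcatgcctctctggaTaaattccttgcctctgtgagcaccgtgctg
Hbb-bs: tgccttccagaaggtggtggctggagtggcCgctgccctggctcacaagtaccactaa
Hbb-bt: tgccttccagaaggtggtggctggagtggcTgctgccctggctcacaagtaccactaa
Of the windows of 150 bases in each mRNA, the length of 1 read, 48.4% in Hba-a1, 65.7% in Hba-a2, 58.7% in Hbb-bs and 50.7% in Hbb-bt were also found in the other gene of the pair. In Alas2 the share was 0%. The reads were paired, and either read of a pair can cover a differing base, so these shares hold for single reads only. How the counting treated reads that match more than 1 gene is not given in the sources used here, so the split within each pair is uncertain, while the summed alpha and the summed beta counts depend on it less.

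The bases upstream of the RefSeq start sites were read for the same build (GRCm38.p6), because the 4 globin genes varied together across the libraries. These start sites differ from the GENCODE gene starts given above, so part of each window lies inside the GENCODE gene. Distances are counted from the RefSeq start. Capitals mark matches, on either strand, to GATAA (the core bound by GATA factors), CACCC (bound by KLF factors), CCAAT and TATAA. All 5 members were found in that table. For Hba-a2 (chr11:32296242-32296491), 247 of 247 aligned bases were identical to Hba-a1, so that only Hba-a1 is printed.
Hba-a1, plus strand, chr11:32283422-32283671: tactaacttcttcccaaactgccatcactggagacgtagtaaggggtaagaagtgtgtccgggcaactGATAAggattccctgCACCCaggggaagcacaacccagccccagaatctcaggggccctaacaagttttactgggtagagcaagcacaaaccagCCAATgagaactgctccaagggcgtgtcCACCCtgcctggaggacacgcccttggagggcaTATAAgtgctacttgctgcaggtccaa
Hbb-bs, minus strand, chr7:103827929-103828178: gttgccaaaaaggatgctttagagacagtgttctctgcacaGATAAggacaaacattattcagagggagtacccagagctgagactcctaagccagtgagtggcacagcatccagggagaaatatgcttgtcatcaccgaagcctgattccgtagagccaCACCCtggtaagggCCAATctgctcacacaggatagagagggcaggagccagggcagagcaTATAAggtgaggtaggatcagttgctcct
Hbb-bt, minus strand, chr7:103813924-103814173: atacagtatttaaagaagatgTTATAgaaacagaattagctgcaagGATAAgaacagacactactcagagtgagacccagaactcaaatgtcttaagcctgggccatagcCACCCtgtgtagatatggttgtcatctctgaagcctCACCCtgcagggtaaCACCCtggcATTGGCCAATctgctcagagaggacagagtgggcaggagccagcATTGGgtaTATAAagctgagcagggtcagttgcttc
Alas2, plus strand, chrX:150547167-150547416: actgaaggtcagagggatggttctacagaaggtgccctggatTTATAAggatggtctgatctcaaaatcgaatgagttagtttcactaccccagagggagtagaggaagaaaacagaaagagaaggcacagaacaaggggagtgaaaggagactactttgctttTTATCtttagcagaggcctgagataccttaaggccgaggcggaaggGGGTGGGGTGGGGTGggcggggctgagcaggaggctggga
Each of the 5 regions held 1 match to GATAA and at least 1 to CACCC. Each of the 4 globin regions held a CCAAT, and each had a TATAA that began 27 to 30 bases before the start site. No CCAAT was found in the Alas2 window, and its TATAA matches, which overlap on opposite strands, lay 207 and 208 bases before the start. Among 32851 promoters of the same length, 22.6% held GATAA, 52.0% CACCC, 33.9% CCAAT and 22.8% TATAA. Aligned without gaps at a fixed offset, the Hbb-bs and Hbb-bt regions were identical at 127 of 249 bases. Such an alignment misses likeness where the spacing differs. GATAA began 209 bases before the start in Hbb-bs and 204 in Hbb-bt, and the nearer TATAA 29 and 28. A match describes the letters alone.

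Total counts were 24587443 to 30244215 in the EAE libraries and 26031889 to 34184576 in the PBS libraries. Among the EAE libraries, EAE 6, EAE 7 and EAE 8 resembled each other most, and among the PBS libraries, PBS 5, PBS 7 and PBS 8 did. Together they are called the 6 libraries most alike, although EAE libraries were not compared with PBS libraries for this. The median squared difference between libraries of the same group was taken relative to counting noise alone. It was 3.02 to 4.09 for pairs within these sets and 5.89 to 26.2 for other pairs of the same group. These libraries were picked from the same counts for small differences within a group, so p-values within them tend to be too small. As the labels name no batch, the members are given with all 16 libraries and also within these 6 libraries and within the other 10. The libraries were labelled as sorted microglia, but the 12 microglial markers summed to 92.8–172 FPKM (fragments scaled to transcript length and library size) per library, against 1188–1512 FPKM for 12 neuronal and 1236–1870 FPKM for 10 astrocyte markers. The paper reports high purity when the sorted cells were analysed again by CD11b and CD45. Sums over lists of different genes do not measure shares of cells. Where RNA of several cell types is present, fewer cells of a type and less RNA per cell cannot be told apart.

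None of the 5 members passed the test between EAE mice and PBS-treated mice when all libraries were used. In edgeR's quasi-likelihood test, 0 of 5 were called DEmRNAs at an adjusted p under 0.05 and a |log2FC| over 1, where 0.117% of the 17885 mRNAs tested were called. Without the threshold on log2FC, 0 of 5 were called, against 2.42% of all mRNAs tested. The number with an unadjusted p under 0.05 was also 0, and DESeq2 called 0. The levels of the chains were nevertheless far from even among mice, and 1 EAE library and 1 PBS library stood above the rest of their groups for each chain.

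**Figure D1:**
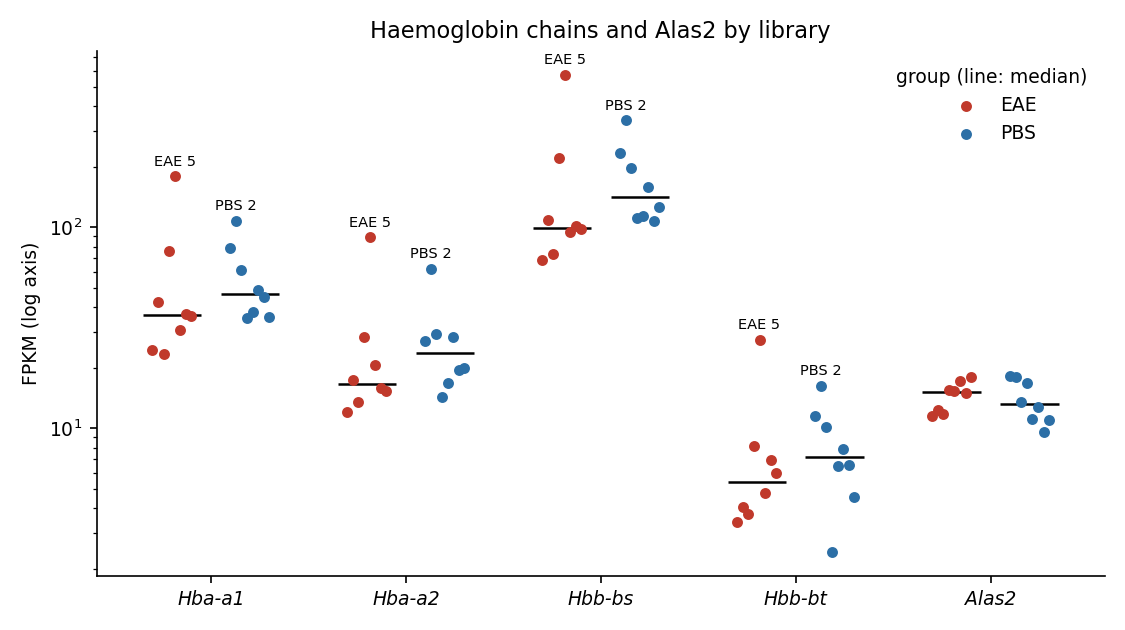
FPKM of the 5 members in each library on a log axis, with EAE libraries in red, PBS libraries in blue and a line at the group median. EAE 5 is the highest library for all 4 chains, at 573 FPKM for Hbb-bs, and PBS 2 is the highest PBS library, at 339 FPKM. Alas2 spans 9.62 to 18.2 FPKM with no such library.

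Hba-a1 encodes the alpha chain at the first of the paired adult alpha loci. Its FPKM in EAE mice was 23.4 at the lowest (EAE 3), 36.6 at the median and 179 at the highest (EAE 5), and in PBS-treated mice 35.5 at the lowest (PBS 4), 46.7 at the median and 108 at the highest (PBS 2). EAE 5 lay above every PBS library, 3 EAE libraries lay below all of them, and the remaining 4 fell inside the PBS range. Raw counts were 321 to 3034. The group means were 56.2 ± 52.5 FPKM (SD, n = 8) in EAE mice and 56.2 ± 25.5 FPKM (SD, n = 8) in PBS-treated mice. The log2FC was −0.05 (SE 0.36, 95% interval −0.79 to 0.69, adjusted p = 0.963, edgeR). The exact permutation test of the FPKM means over 12870 divisions of the libraries gave a two-sided p = 1.00.

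Hba-a2, the companion alpha gene, was lower per length. EAE libraries held 12.004 FPKM at the lowest (EAE 1), 16.6 at the median and 89.4 at the highest (EAE 5), and PBS libraries held 14.3 at the lowest (PBS 4), 23.6 at the median and 62.2 at the highest (PBS 2). EAE 1 and EAE 3 lay below the PBS range and EAE 5 above it. The log2FC was −0.09 (SE 0.37, 95% interval −0.86 to 0.68, adjusted p = 0.934, edgeR), and the exact permutation p for FPKM was 0.944 (two-sided).

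Hbb-bs, the adult s beta chain, was the most abundant member per length and ranked 113 of 21878 by mean FPKM. EAE libraries held 68.8 FPKM at the lowest (EAE 1), 99.3 at the median and 573 at the highest (EAE 5), while PBS libraries held 108 at the lowest (PBS 7), 142 at the median and 339 at the highest (PBS 2). EAE 1, EAE 3, EAE 6, EAE 7 and EAE 8 lay below the lowest PBS library. EAE 2, at 109 FPKM, and EAE 4, at 221 FPKM, fell inside the PBS range, and EAE 5 was 5.77-fold above the median of its own group. Raw counts were 1155 to 11077, so that counting noise is small beside this spread. The means were 167 ± 171 FPKM (SD, n = 8) in EAE mice and 173 ± 81.1 FPKM (SD, n = 8) in PBS-treated mice. The log2FC was −0.10 (SE 0.38, 95% interval −0.89 to 0.68, adjusted p = 0.923, edgeR), and the exact permutation test gave p = 0.946 (two-sided).

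Hbb-bt, the adult t beta chain, was the lowest chain, at 44 to 525 counts. EAE libraries held 3.42 FPKM at the lowest (EAE 1), 5.39 at the median and 27.6 at the highest (EAE 5), and PBS libraries held 2.43 at the lowest (PBS 4), 7.20 at the median and 16.3 at the highest (PBS 2). No EAE library lay below the PBS range, and EAE 5 alone lay above it. The log2FC was −0.07 (SE 0.40, 95% interval −0.89 to 0.76, adjusted p = 0.955, edgeR), and the exact permutation p for FPKM was 0.976 (two-sided).

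Alas2 was steadier than the chains. EAE libraries held 11.5 FPKM at the lowest (EAE 1), 15.2 at the median and 17.9 at the highest (EAE 8), and PBS libraries held 9.62 at the lowest (PBS 7), 13.2 at the median and 18.2 at the highest (PBS 1). Every EAE library fell inside the PBS range, and EAE 5, at 15.4 FPKM, was near the middle of it. The log2FC was 0.02 (SE 0.13, 95% interval −0.25 to 0.29, adjusted p = 0.958, edgeR), and the exact permutation p for FPKM was 0.636 (two-sided).

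In order of mean FPKM over the 16 libraries, Hbb-bs was at 170.3, Hba-a1 at 56.2, Hba-a2 at 26.9, Alas2 at 14.2 and Hbb-bt at 8.16. Within every library Hbb-bs was above Hba-a1 and Hba-a1 above Hba-a2, and Hba-a2 exceeded Hbb-bt. The ranges of Alas2 and of Hba-a2 overlapped, as did those of Alas2 and Hbb-bt. The highest library was 7.68 times the lowest for Hba-a1, 7.45 times for Hba-a2, 8.33 times for Hbb-bs, 11.3 times for Hbb-bt and 1.89 times for Alas2. On the log2 CPM scale (counts scaled to library size with TMM factors), the SD within groups was 0.81 for Hba-a1 and for Hba-a2, 0.84 for Hbb-bs and 0.91 for Hbb-bt, and 0.31 for Alas2, beside a median of 0.17 over the 14759 mRNAs with a mean CPM of at least 1. Only 0.508% to 0.793% of these mRNAs varied more than the chains within groups, whereas 17.97% varied more than Alas2.

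The estimate for the chains depended on EAE 5. Without this library the log2FC was −0.60 for Hba-a1, −0.69 for Hba-a2, −0.72 for Hbb-bs and −0.68 for Hbb-bt in the edgeR fit, with unadjusted p-values of 0.0308, 0.0146, 0.0114 and 0.0336 and adjusted p-values of 0.188, 0.127, 0.112 and 0.196. In this fit all 4 chains were lower in EAE mice, and none passed the adjusted threshold. EAE 5 was the highest EAE library for each chain, so leaving it out lowers the EAE levels, and these p-values tend to be too small. Since the chains varied together, the 4 are not separate observations. Without PBS 2, the highest PBS library for each chain, the sign of the 4 chains turned, to 0.17, 0.22, 0.12 and 0.17, respectively (adjusted p of 0.831 to 0.919, edgeR). Alas2 was at 0.01 without EAE 5 and at 0.09 without PBS 2. For 6 of 8 EAE libraries each chain was below the PBS median. The 16 fits that each left out 1 library called 0 members.

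**Figure D2:**
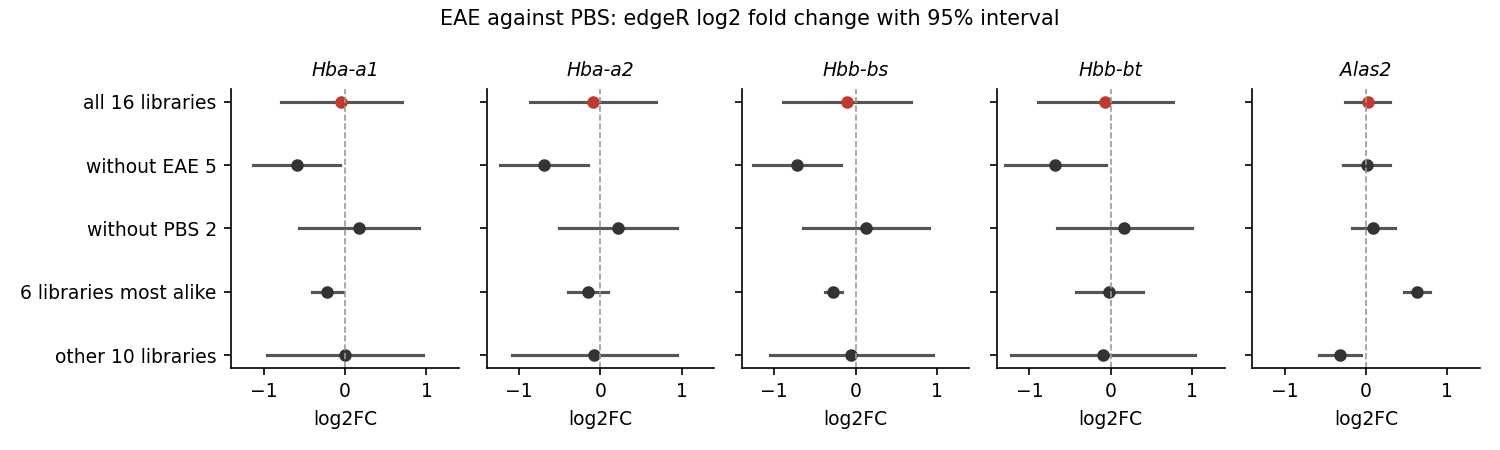
The log2FC of EAE against PBS from edgeR for each member, with its 95% interval, for all 16 libraries (red), without EAE 5, without PBS 2, within the 6 libraries most alike and within the other 10. For Hbb-bs the value moves from −0.10 to −0.72 without EAE 5 and to 0.12 without PBS 2. For Alas2 it is 0.62 within the 6 libraries and −0.32 within the other 10.

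The marker sums of some other cells also stood high in EAE 5. The summed FPKM of the 12 endothelial markers was 147 in EAE 5, with 106 to 124 in the other EAE libraries. The PBS range was 90.2 to 147, and no endothelial marker was at or under 3 counts throughout. PBS 7 and PBS 8 also summed to 147 FPKM, and their Hbb-bs was at 108 and 126 FPKM, against 573 FPKM in EAE 5. The 10 astrocyte markers summed to 1870 FPKM and the 10 oligodendrocyte markers to 1326 FPKM in EAE 5, the highest of the 16 libraries in both lists. Over the groups the astrocyte sums were 1236–1870 FPKM in EAE mice and 1442–1698 FPKM in PBS-treated mice, and the oligodendrocyte sums were 945–1326 FPKM and 1042–1282 FPKM. The 12 neuronal markers summed to 1188 FPKM there, the lowest of all libraries, against 1188–1405 FPKM over the EAE group and 1358–1512 FPKM over the PBS group. None of these 3 lists held a marker at or under 3 counts throughout. The part of these cell types in the globin levels was not tested.

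The alpha and beta chains varied together from library to library. The alpha to beta ratio in FPKM was 0.490 ± 0.0285 (SD, n = 8) in EAE mice and 0.462 ± 0.0444 (SD, n = 8) in PBS-treated mice, and it ran from 0.428 in PBS 8 to 0.563 in PBS 7. It thus varied 1.32-fold, while the summed CPM of the 4 chains varied 8.03-fold, from 65.2 in EAE 1 to 524 in EAE 5. EAE 5 itself had a ratio of 0.448. Hba-a2 gave 27.1% to 40.1% of the alpha FPKM in the EAE group and 25.7% to 36.9% of it in the PBS group. Hbb-bt gave 3.57% to 6.48% of the beta FPKM in the EAE group and 2.14% to 5.73% of it in the PBS group. These shares rest on the parts of the mRNAs that differ within each pair and on how shared reads were counted. Alas2 FPKM per 100 FPKM of globin was 1.77 in EAE 5 and 11.5 in EAE 8.

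**Figure D3:**
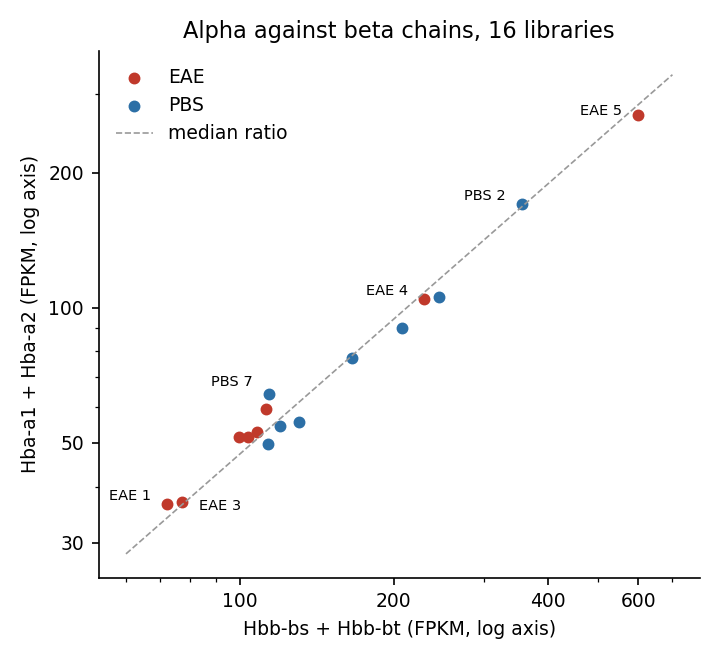
Summed alpha chain FPKM (Hba-a1 and Hba-a2) against summed beta chain FPKM (Hbb-bs and Hbb-bt) in 16 libraries, on log axes, with the median ratio of 0.472 as a dashed line. The libraries run along the line from EAE 1 and EAE 3 to EAE 5, and PBS 7, with a ratio of 0.563, is the farthest above it.

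Correlations of log2 CPM over the 16 libraries were computed for the 10 pairs of members, with permutation tests of 100000 draws and Benjamini-Hochberg adjustment over the pairs. For the 6 pairs of chains, Pearson's r was 0.90 to 0.99 and Spearman's rho 0.81 to 0.92, with adjusted permutation p-values of 2e-05 to 3.3e-05 for r and 0.0001 to 0.0005 for rho, and the smallest unadjusted p was the smallest that the draws can give. Without the 2 libraries farthest from the median of the first gene, r was 0.76 to 0.96. It was 0.94 to 0.99 within EAE mice and 0.84 to 0.97 within PBS-treated mice. Within the 6 libraries most alike, where the summed CPM of the chains ran only from 91.1 to 116, r was −0.62 to 0.65, and the relation did not hold there; within the other 10 libraries it was 0.93 to 0.99. For Alas2 with each chain, r was 0.35 to 0.44 and rho 0.30 to 0.38 (adjusted permutation p of 0.12 to 0.19 for r and 0.21 to 0.26 for rho). Without the 2 farthest libraries, r with Alas2 was 0.22 to 0.58. It was 0.35 to 0.46 within EAE mice and 0.30 to 0.71 within PBS-treated mice. Within the 6 libraries most alike it was −0.81 to −0.19, and within the other 10 it was 0.49 to 0.68. Both of these sets hold EAE and PBS libraries together, so r within them includes the difference between the groups. In the 6 libraries Alas2 was higher and Hbb-bs lower in EAE mice, so the negative r there cannot be told apart from that difference. Reads shared within a pair can add to the correlation of that pair, though not to that of an alpha with a beta chain.

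The 10 mRNAs whose log2 CPM followed the mean of the 4 chains most closely over the 16 libraries included Tubb2b (r = 0.96), Rpsa (0.96), Podxl (0.95), Rps12 (0.95), Rps14 (0.95), Rack1 (0.94), Rpl26 (0.94), Srebf2 (0.93) and Rpl10 (0.92). Rpsa, Rps12, Rps14, Rpl26 and Rpl10 encode ribosomal proteins, and Rack1 binds the small ribosomal subunit. None of the 10 is a red cell marker of the lists used here, and none had an adjusted p under 0.5 between the groups (edgeR). Within the 6 libraries most alike, r was 0.94 for Tubb2b and 0.94 for Rpsa, but 0.39 for Podxl and −0.12 for Srebf2. Of 14754 mRNAs compared, 21 had an r over 0.9. For Alas2 the 5 closest were Lrrc19 (r = 0.88), Tmem178 (0.84), Hyls1 (0.82), Pfkfb1 (0.81) and Rasal1 (0.80), and no mRNA reached 0.9. The points share their depth and scaling, and no test was attached to this ranking.

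The log2FC of Alas2 had opposite signs in these sets of libraries. Within the 6 libraries most alike, EAE 6 to EAE 8 held 14.9, 17.1 and 17.9 FPKM, and PBS 5, PBS 7 and PBS 8 held 11.1, 9.62 and 10.996 FPKM. The groups did not overlap, and Alas2 was higher in EAE mice by a log2FC of 0.62 (SE 0.08, adjusted p = 1.36e-06, edgeR), in a comparison that called 23.0% of the 18033 mRNAs tested. Within the other 10 libraries the 5 EAE libraries held 11.5 to 15.5 FPKM and the 5 PBS libraries 12.8 to 18.2 FPKM, which overlapped. The log2FC there was −0.32 (SE 0.12, unadjusted p = 0.0198, adjusted p = 0.352, edgeR), where 0.0898% of mRNAs were called. The difference between these effects was 0.94 (SE 0.18, 95% interval 0.56 to 1.32, unadjusted p = 3.82e-05). Its adjusted p of 0.0525 in the edgeR interaction term missed the threshold, and 0.0615% of mRNAs passed it. This term was chosen after the data were seen. The 6 libraries were picked from the same counts for small differences within a group, so the SE and p-values within them tend to be too small.

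Among the chains, Hbb-bs was lower in EAE mice within the 6 libraries. It held 94.8 to 101 FPKM in EAE 6 to EAE 8 and 108 to 126 FPKM in PBS 5, PBS 7 and PBS 8, with no overlap and a log2FC of −0.27 (SE 0.05, adjusted p = 0.000424, edgeR). Hba-a1 was at −0.22 (adjusted p = 0.0880), Hba-a2 at −0.15 (adjusted p = 0.405) and Hbb-bt at −0.02 (adjusted p = 0.967, edgeR). Of the 5 members, 2 were called in this set, Hbb-bs lower and Alas2 higher, where 23.0% of all mRNAs tested were called. Both calls come from libraries picked for small differences within a group. Within the other 10 libraries the chains were at −0.09 to 0.00 (adjusted p of 0.978 to 1.00, edgeR). The interaction term for the chains was −0.22 to 0.08, with adjusted p-values of 0.957 to 0.988.

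**Figure D4:**
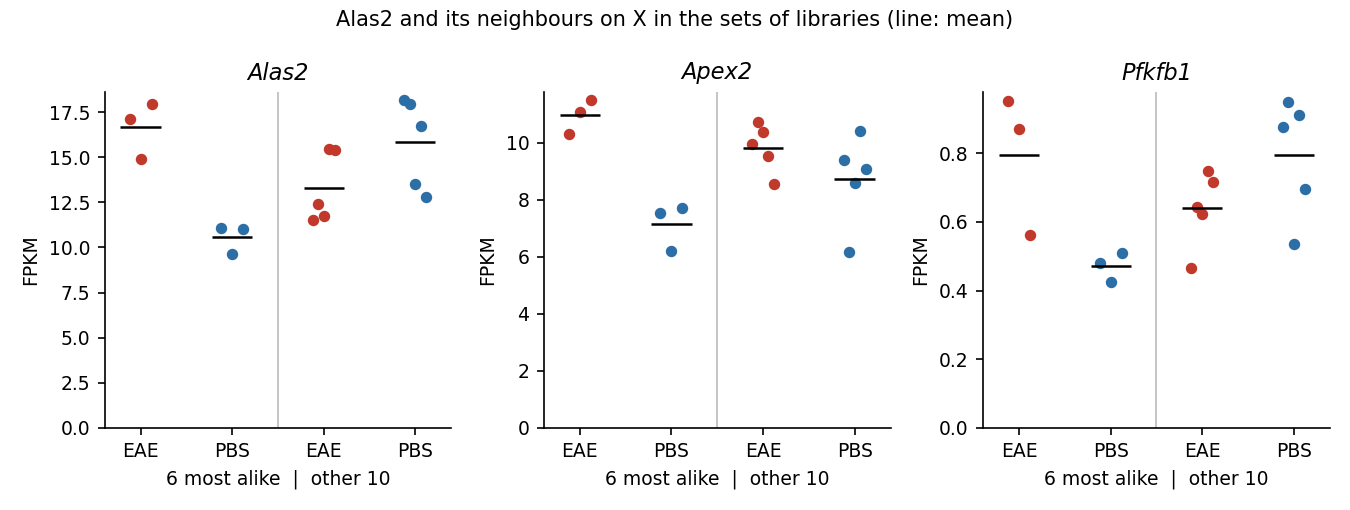
FPKM of Alas2, Apex2 and Pfkfb1 in EAE (red) and PBS (blue) libraries, split into the 6 libraries most alike and the other 10, with a line at each mean. Mean Alas2 is 16.7 FPKM in EAE mice against 10.6 FPKM in PBS-treated mice in the 6 libraries, and 13.3 against 15.8 FPKM in the other 10.

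The neighbourhood of Alas2 on the X chromosome bears on how its reads are assigned. In GENCODE, Alas2 (chrX:150547375-150570638, plus strand) lies inside the span of Apex2 (chrX:150519519-150589868, minus strand), which encodes a DNA repair endonuclease. There, 311 exonic bases of Alas2 are also exonic in Apex2. The paper names RefSeq for annotating transcripts. The length implied by counts and FPKM was 1979 bases for Alas2, against 2403 exonic bases in GENCODE. Whether the overlap is present in the annotation that was counted is therefore not known. The library kit marks strand, but the strand setting of the counting is not given in the sources used here, so reads of the shared bases cannot be assigned with certainty. Apex2 had a log2FC of 0.59 within the 6 libraries (adjusted p = 4.58e-07) and 0.11 within the other 10 (adjusted p = 0.817, edgeR). It followed Alas2 only weakly over the 16 libraries (r = 0.31). Pfkfb1, which encodes a regulatory enzyme of glycolysis and starts 17590 bases beyond the end of Alas2, was at 0.72 within the 6 libraries (adjusted p = 0.0847) and at −0.38 within the other 10 (adjusted p = 0.635, edgeR). Pfkfb1 does not overlap Alas2, but 123 of its exonic bases are also exonic in Apex2 in GENCODE. The mean level of Pfkfb1 was 0.685 FPKM. The part of Apex2 reads in the Alas2 and Pfkfb1 values was not tested.

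The other genes of the red cell were mostly near 0. Of 16 red cell membrane genes, 11 stayed under 2 FPKM in every library: Slc4a1 (band 3, the anion exchanger) at 0.170 to 0.552 FPKM, Epb42 at 0.0587 to 0.192 FPKM and Kel at 0 to 0.217 FPKM are examples, and Rhag did not exceed 3 counts in any library. The other 5, Epb41, Sptb, Ank1, Tspan33 and Add2, reached 57.2 FPKM, and Epb41, Sptb, Ank1 and Add2 are also known from neurons. Summed over the list, the EAE group held 115 to 139 FPKM and the PBS group 126 to 136 FPKM, and EAE 5 was the lowest of the 16. Most of this sum came from Add2, at 45.8 to 57.2 FPKM, and Sptb, at 37.4 to 48.5 FPKM. None of the 11 low genes exceeded 1.86 FPKM, so the sum says little about genes restricted to red cells. Of 15 tested, 0 were called by edgeR or by DESeq2, and 0 had an unadjusted p under 0.05. The 2 smallest p-values were those of Tspan33 (log2FC −0.16, adjusted p = 0.300) and Sptb (−0.12, adjusted p = 0.322). The median log2FC was −0.04, beside 0.01 over all mRNAs tested.

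The embryonic globins Hbb-bh1, Hbb-bh2 and Hbb-y were at 0 counts in all 16 libraries, which allows up to 3 counts in each, and embryonic Hba-x had at most 1 count. Of the 9 other globins listed in the table, 5 were tested, and 0 were called by edgeR or DESeq2 (0 at an unadjusted p under 0.05; median log2FC −0.07). Hbq1a, a theta globin, was at 0.655 ± 0.306 FPKM (SD, n = 8) in EAE mice and 0.391 ± 0.214 FPKM (SD, n = 8) in PBS-treated mice (log2FC 0.67, adjusted p = 0.437). Cytoglobin (Cygb), a globin of fibroblasts and neurons, was at 11.7 ± 0.892 and 12.1 ± 1.24 FPKM (log2FC −0.09, adjusted p = 0.503, edgeR).

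**Figure D5:**
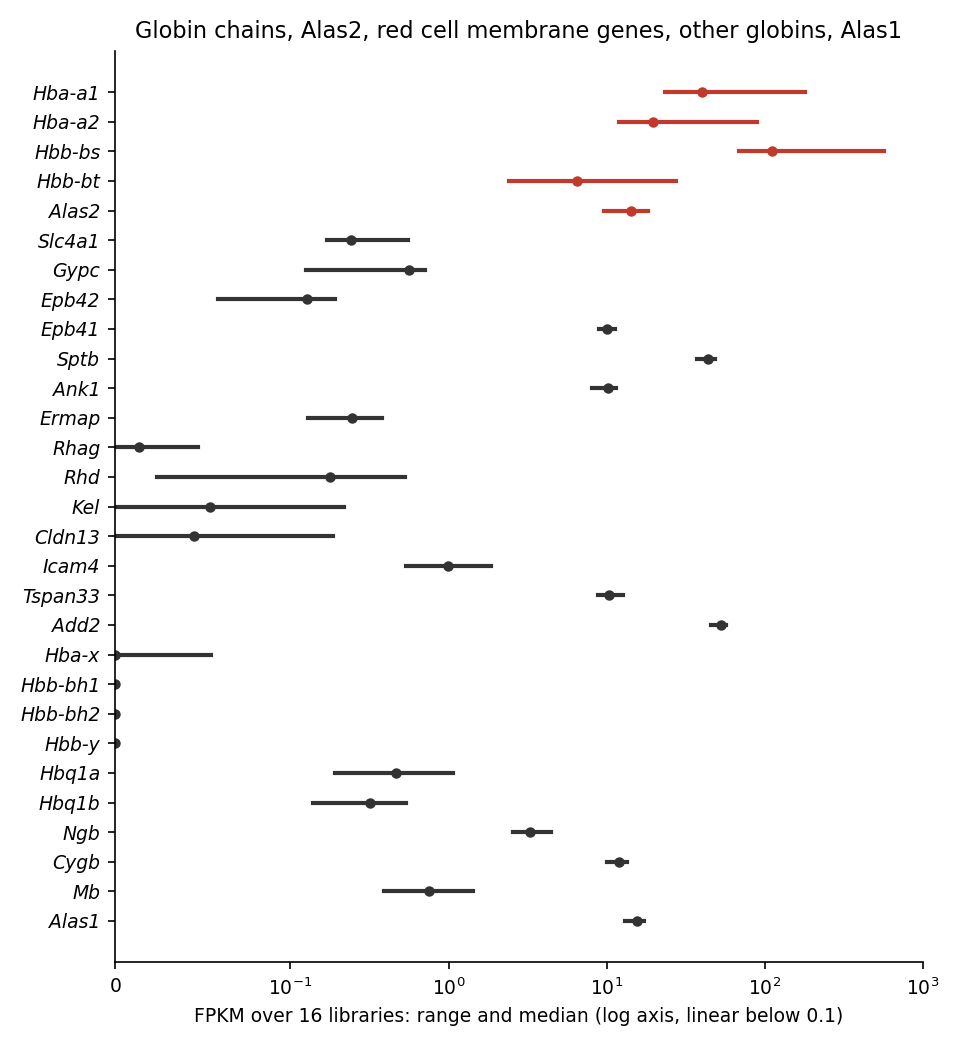
FPKM over 16 libraries for the 5 members (red) and for red cell membrane genes, other globins and Alas1 (black), with lines from the lowest to the highest library and points at the median. The axis is logarithmic above 0.1 and linear below it. Hbb-bs runs from 68.8 to 573 FPKM, whereas Slc4a1 stays between 0.170 and 0.552 FPKM.

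Of 12 erythroid regulators, 11 were tested and 0 were called by edgeR or DESeq2 (0 at an unadjusted p under 0.05; median log2FC 0.01). Gata1 was at 0 to 6 counts, Klf1 at 4 to 25 counts, and Gfi1b at no more than 1 count per library. Zfpm1, which encodes the GATA1 partner FOG1, had a log2FC of −0.21 (adjusted p = 0.410) and Lmo2 one of 0.17 (adjusted p = 0.456, edgeR). The 13 genes of haem synthesis and its mitochondrial transport were all tested, and 0 were called by either tool, with 1 at an unadjusted p under 0.05 (median log2FC −0.01). That gene was Urod, uroporphyrinogen decarboxylase, with a log2FC of −0.18 (adjusted p = 0.175). Tmem14c, which carries a porphyrin precursor into mitochondria, was at −0.15 (adjusted p = 0.538, edgeR). Alas1, the isoenzyme of other cells, was at 13.1 to 17.3 FPKM (log2FC 0.01, adjusted p = 0.960), close to the range of Alas2.

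Of 13 genes of red cell maturation, all were tested, and 1 was lower and 0 were higher in EAE mice (edgeR, adjusted p under 0.05; median log2FC −0.12). It was Cat, catalase, a widely expressed enzyme, with 12.5 ± 1.23 FPKM (SD, n = 8) against 14.3 ± 0.688 FPKM (SD, n = 8) and a log2FC of −0.24 (SE 0.06, adjusted p = 0.0373). Without 1 of the libraries the adjusted p of Cat ran from 0.00518 to 0.0855, and it was under 0.05 in 4 of 16 such fits. Summed over the list, the EAE group held 192 to 244 FPKM and the PBS group 212 to 244 FPKM, and EAE 5 was the highest of the 16. Bpgm, bisphosphoglycerate mutase, which makes the regulator of haemoglobin's oxygen affinity, was at 14.9 ± 3.61 and 18.3 ± 1.54 FPKM, with a log2FC of −0.35 (SE 0.11, adjusted p = 0.0875 with edgeR and 0.0347 with DESeq2). EAE 5, at 21.5 FPKM, and PBS 2, at 21.6 FPKM, were the highest libraries for Bpgm, as they were for the chains. Its r with the mean of the chains was 0.73, which ranked 352 among the mRNAs compared.

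Of 9 genes for the clearance of haemoglobin and haem, 1 was higher and 0 were lower in EAE mice (edgeR, adjusted p under 0.05; median log2FC −0.13). Hmox1, haem oxygenase 1, which degrades haem, was the only DEmRNA of the 6 pathway lists, at 15.1 ± 3.98 FPKM (SD, n = 8) in EAE mice and 7.12 ± 3.94 FPKM (SD, n = 8) in PBS-treated mice (log2FC 1.03, SE 0.27, adjusted p = 0.0436, edgeR). EAE libraries held 8.26 FPKM at the lowest, 14.3 at the median and 20.9 at the highest, in EAE 5, and PBS libraries held 2.05, 5.79 and 12.4 FPKM. The groups overlapped, since PBS 5, PBS 7 and PBS 8 were at 10.7 to 12.4 FPKM. The log2FC was 0.21 within the 6 libraries most alike (adjusted p = 0.0664) and 1.78 within the other 10 (adjusted p = 0.0201), and the interaction term had an adjusted p of 0.102. The call was lost with robust estimation (adjusted p = 0.107), and only 6 of the 16 fits that left out 1 library had an adjusted p under 0.05. DESeq2 also called Lrp1, the receptor for haem bound to haemopexin, for which the edgeR values were −0.13 with an adjusted p of 0.0583.

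Among the other cells of blood, 5 of 15 neutrophil genes were called DEmRNAs, all higher in EAE mice, among them Ngp (log2FC 1.56), Ltf (1.87), S100a9 (1.33) and S100a8 (1.33), with adjusted p-values of 0.00304 to 0.0169, and Ctsg, at 0 to 6 counts. The difference between these genes and the chains was not tested. The summed FPKM of the list was 54.8 to 105 in EAE mice and 23.4 to 60.7 in PBS-treated mice, and EAE 5, at 63.6 FPKM, ranked 6 of 16. Of 12 platelet genes, 0 were called and 2 had an unadjusted p under 0.05: Ppbp, with a log2FC of −2.17 at 0 to 12 counts (adjusted p = 0.0772), and Gp5, at 0.60 (adjusted p = 0.142, edgeR). Of 9 monocyte genes 0 were called and 0 had an unadjusted p under 0.05, with the highest sum, 33.5 FPKM, in EAE 5, and of 8 tested T and B cell genes 0 were called and 2 had an unadjusted p under 0.05. DESeq2 also called 0 in these 3 lists.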

How the data were processed

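The authors aligned filtered reads to GRCm38 with HISAT2 (version 2.1.0), counted them with HTSeq (version 0.11.2) and deposited raw counts and FPKM values per mRNA. Per the labels, bcl2fastq and DESeq2 (version 1.22.2) were also used. The counts were tested here with edgeR (version 4.0.16) in R 4.3.3, using TMM scaling and the quasi-likelihood test without robust estimation, on 17885 of 21878 mRNAs, those that summed to 16 counts or more over the libraries. P-values were adjusted by Benjamini-Hochberg over all mRNAs tested. The FPKM values were compared by exact permutation tests. DESeq2 (version 1.42.0), RLE size factors, other filters, robust estimation, a block for the replicate number, a term for the 6 libraries most alike and leaving out each library were tried. Log2 CPM used a prior count of 1. The fits were tested on simulated data. Named genes are the members, every DEmRNA of each list (otherwise the 2 smallest p-values) and the mRNAs most correlated with the members; Lrp1 and genes named for their level were added after their values were seen. Some genes of the lists and of the correlation ranking are not reported here. The members and all lists (other globins, haem synthesis, red cell membrane, erythroid regulators, red cell maturation, clearance and cell type markers) were chosen with earlier results of these data known. The limit of 3 counts that a count of 0 allows covers counting error only.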

Additional observations from a re-analysis of the deposited data

Results flagged for a closer look

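Each of these values lay far from the rest of its own group of 8 libraries by Dixon's criterion. Chance exceeds it in about 1 of 20 groups when values are normally distributed. Untransformed FPKM can be skewed, and Ctsg was at 0 FPKM in every PBS library but PBS 5, so the rate here can be higher. Of 124 groups examined, 24 held such a library, 8 of them with EAE 5. Many of these quantities are sums or neighbours of each other and are not independent.

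EAE 5 was the highest EAE library for Hba-a1 (179 FPKM, next 76.2), Hba-a2 (89.4 FPKM, next 28.3), Hbb-bs (573 FPKM, next 221) and Hbb-bt (27.6 FPKM, next 8.19). It was therefore also the highest for the summed alpha chains (269 FPKM), the summed beta chains (601 FPKM) and the summed CPM of the 4 chains (524). The endothelial markers summed to 147 FPKM in the same library, as they also did in PBS 7 and PBS 8. PBS 2 was the highest PBS library for Hba-a2 (62.2 FPKM, next 29.4), the summed alpha chains (170.0 FPKM), Bpgm (21.6 FPKM) and the endothelial marker Ly6c1 (12.5 FPKM).

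PBS 7 had the highest alpha to beta ratio of its group (0.563, next 0.478), and PBS 4 the most Alas2 FPKM per 100 FPKM of globin (10.3, next 6.35). PBS 4 was also the highest for the microglial markers (160.1 FPKM) and for Fcrls among them (11.2 FPKM), and was listed at 0 FPKM for Ltf. EAE 4 was the highest for Tmem14c (13.4 FPKM), Kl (3.26 FPKM) and the choroid plexus markers (133 FPKM), and the lowest for the erythroid regulators (72.4 FPKM). In low or brain cell genes, PBS 5 was the highest for Ctsg (0.0307 FPKM), PBS 3 for Cd3e (0.218 FPKM) and PBS 6 for Opalin (11.9 FPKM).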

How the results depend on the processing

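No member was called a DEmRNA under any setting tried, and the 5 settings that changed scaling, filter, tool or robust estimation moved the log2FC of the chains only between −0.11 and −0.04 and that of Alas2 between 0.02 and 0.03. Within the 6 libraries most alike, 2 members had an adjusted p under 0.05 in place of 0, Hbb-bs (log2FC −0.27) and Alas2 (0.62), while the share called over all mRNAs tested was 23.0% in place of 2.42%. That set was picked from the same counts for small differences within a group. Within the other 10 libraries Alas2 was at −0.32 and Hba-a1 at 0.000425, both with the sign turned. Leaving out 1 library gave ranges, from without EAE 5 to without PBS 2, of −0.60 to 0.17 for Hba-a1, −0.69 to 0.22 for Hba-a2, −0.72 to 0.12 for Hbb-bs and −0.68 to 0.17 for Hbb-bt, and of −0.0419 to 0.0920 for Alas2 (without PBS 7 and PBS 2). In FPKM these differences between the group means ranged from −17.6 to 7.38 for Hba-a1, −9.66 to 4.30 for Hba-a2, −63.9 to 17.8 for Hbb-bs, −2.91 to 1.02 for Hbb-bt and 0.0844 to 1.31 for Alas2. The difference for Hba-a1, which was 0.00809 FPKM, was −0.25 on the log2(FPKM + 0.1) scale and −0.24 on the log2(FPKM + 1) scale (exact permutation p of 0.554 and 0.561). FPKM in place of log2 CPM changed no call among the 10 correlations of members. Of the list genes named, Tspan33 (0.0580), Sptb (0.0215), Zfpm1 (0.00611) and Gfap (−0.0489) turned sign within the 6 libraries. The cause of these changes was not tested.

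Replicate numbers are shared by the groups, but same-numbered libraries did not deviate together (r of −0.22 to 0.56 over 8 pairs, over 0.1 in 3), and only EAE 4 and EAE 8 correlated best with the PBS library of their own number. With the replicate number as a block, the log2FC was −0.32 for Hba-a1, −0.32 for Hba-a2, −0.43 for Hbb-bs, −0.26 for Hbb-bt and 0.04 for Alas2, and no member was called. The depth of 24587443 counts or more leaves counting error small for the members, so that the precision is set by the spread among 8 mice per group.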

Other observations

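Among the markers of brain cells, 1 of 12 microglial genes was higher in EAE mice at an adjusted p under 0.05 (edgeR): Itgam, which encodes CD11b, at 8.24 ± 0.764 FPKM (SD, n = 8) against 5.77 ± 0.466 FPKM (SD, n = 8), with a log2FC of 0.46 and an adjusted p of 0.00180. Of 12 neuronal genes, 2 were lower, Gad1, which encodes a GABA-synthesizing enzyme (log2FC −0.53, adjusted p = 0.00309), and Syt1, the synaptic vesicle calcium sensor (−0.28, adjusted p = 0.0326). Of 10 astrocyte genes, Gfap was higher (0.50, adjusted p = 0.0312) and the bicarbonate transporter Slc4a4 lower (−0.25, adjusted p = 0.0140). Among the fits that left out 1 library, Syt1 kept an adjusted p under 0.05 in 8 of 16 (highest 0.0772) and Gfap in 9 of 16 (highest 0.0714), and the call for Gfap was also lost with robust estimation (adjusted p = 0.0613). Of 8 choroid plexus genes, 1 was lower, Ttr, the transthyretin gene (−0.88, adjusted p = 0.0163). Of 10 oligodendrocyte genes 0 were called by edgeR, with 4 at an unadjusted p under 0.05. Of 12 endothelial genes 0 were called by edgeR or DESeq2, with 1 at an unadjusted p under 0.05, Vwf (−0.44, adjusted p = 0.177).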
